A study of Drosophila melanogaster with 12 samples.

Results

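The comparison described here set Drosophila S2 cells treated with double-stranded RNA (dsRNA) against Sin3A beside S2 cells treated with dsRNA against GFP, across every gene tested. The S2 line came from late fly embryos and has features of hemocytes, the macrophage-like blood cells of the fly. Cells of both groups had a wild-type genotype, and RNA was taken after 4 days of dsRNA. Each group had 3 samples, which make up 6 of the 12 samples of the study; its other groups received dsRNA against Sam-S, or against Sin3A and Sam-S together. The gene rows were those that the authors tested in their table of this comparison, 8123 of 14542 rows. Because GFP is not a fly gene, the control carried dsRNA with no target of its own in the cell.

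Sin3A encodes the scaffold of a corepressor complex that brings the histone deacetylase Rpd3 to chromatin. The complex removes acetyl groups from histones near transcription start sites and is best known as a repressor, although loss of SIN3 in cultured fly cells is known to change genes in both directions. In flies the complex has been linked to cell cycle progression, mitochondrial genes and the metabolism of the methyl donor S-adenosylmethionine.

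Expression was deposited as FPKM, a fragment count scaled to transcript length and to the size of the library, with 1 value per gene row and group that pools the replicates. No value therefore has a spread between samples, read depth is unknown, and no test could be made here across samples. A gene was called, and is said to have risen or fallen, where the authors' deposited table gave a Cuffdiff q under 0.05. Whether that q reflects how the 3 samples of a group differed cannot be told from the labels. Log2 fold changes are log2 of the SIN3 FPKM over the GFP FPKM with nothing added, and coordinates are those of the fly genome build dm3.

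The row of the targeted transcript did not bear out the label. Its span is shared with another row, so some of its reads may belong to a neighbour. Sin3A was measured at 67.9 FPKM after GFP dsRNA and at 61.7 FPKM after Sin3A dsRNA (log2 fold change -0.14), and the authors' deposited table gives it q = 0.931. The log2 fold change of Sin3A was 0.06 in the samples labelled SAM-S knockdown and -0.08 in those labelled double knockdown. No protein value was among the data used here, so every direction below rests on the label. Of 10 tested genes of the SIN3 complex, 0 were called, beside 7.68% of all tested rows, and Rpd3 had 102 and 72.9 FPKM, control first.

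Genes changed in both directions, and the falls were the larger changes. Of 8123 tested rows, 624 were called (7.68%), of which 271 rose (3.34%) and 353 fell (4.35%). The median rise was 0.78 on the log2 scale and the median fall was -1.04. Rises were mostly modest: 4 reached 4-fold, 50 lay between 2-fold and 4-fold, and 217 were under 2-fold. Among the falls 24 reached 4-fold, 169 lay between 2-fold and 4-fold and 159 were under 2-fold. One further called row, the small nucleolar RNA gene snRNA:U3:22A, is listed at 0 FPKM in the samples labelled SIN3 knockdown, against 4.68 FPKM in the control. The typical gene hardly moved, with a median log2 fold change of -0.014 over all tested rows and a median absolute value of 0.23.

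The direction of the calls differed with the level of the gene. The tested rows were cut into quintiles of mean FPKM. In the lowest quintile 9 rose and 117 fell, and the median log2 fold change was -0.28. In the next quintile 47 rose and 81 fell, and in the middle quintile 68 rose and 53 fell. The 2 highest quintiles had 81 and 66 rises and 48 and 54 falls. Among the falls, 38 ended under 1 FPKM, while 5 rises started under 1 FPKM.

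**Figure D1:**
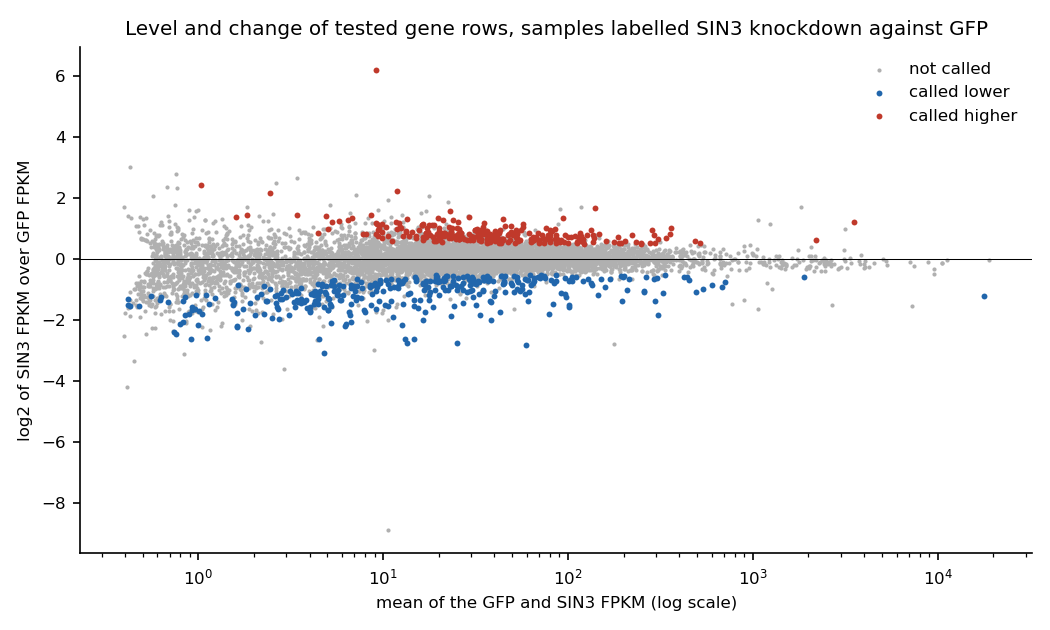
Each point is a tested gene row, with the mean of its 2 pooled FPKM values on a log axis and the log2 of SIN3 over GFP FPKM on the other; the 23 rows at 0 FPKM in 1 group are left out. Called falls (blue, 353 in all with snRNA:U3:22A) lie mostly at low and middle levels, and called rises (red, 271) mostly at middle and high levels.

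Among called rows with at least 5 FPKM in the higher and 0.5 FPKM in the lower group, the esterase gene alpha-Est3 rose most, from 4.14 to 19.5 FPKM (2.24). CG1969, now named Gnpnat, an acetyltransferase of the hexosamine pathway (chromosome 3R, 25563997 to 25567674), rose from 11.5 to 34.6 FPKM (1.59). CG3608 (Adck1), from 11.2 to 28.5 FPKM, and CG7616 (Adck5; chromosome 3L, 11162917 to 11165511), from 3.7996 to 9.19 FPKM, encode kinase-like proteins of a family known from coenzyme Q synthesis. CG9249 (Coq3), a methyltransferase that makes coenzyme Q, rose from 12.4 to 29.8 FPKM (1.27). The merged row of l(3)72Do, now Hsc20, a co-chaperone of iron-sulfur cluster assembly, and its neighbour l(3)72Dp rose from 7.09 to 16.4 FPKM (1.21).

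The adenine salvage gene Aprt rose from 25.4 to 63.6 FPKM (1.32). Mesh1, the fly relative of a bacterial hydrolase of the alarmone ppGpp, rose from 10.2 to 22.8 FPKM (1.16). Gfr, the Golgi transporter of GDP-fucose, rose from 21.2 to 48.7 FPKM (1.20), and CG5613 (ENGase), which cuts N-linked glycans, from 3.42 to 8.17 FPKM (1.26). CG17840 (FIG4), a phosphoinositide phosphatase, rose from 7.80 to 19.3 FPKM (1.31). Sras, a protease that trims prenylated proteins, rose from 35.4 to 78.7 FPKM (1.15; chromosome 3L, 5556874 to 5558203). The antimicrobial peptide gene AttB rose from 6.10 to 13.6 FPKM (1.15). CG15784, CG8301, CG7328, CG1635, CG4942, Dgp-1, CG5377, CG9067, CG11658, CG42568 and CG15390 completed the list with log2 fold changes between 1.18 for CG15390 and 1.67 for CG15784. RpL28, a ribosomal protein gene, rose from 2139 to 4963 FPKM (1.21), although 43 of the 46 tested rows with symbols in RpL, and 31 of the 32 in RpS, had negative values. The spans of RpL28, CG8301, CG3608, CG17840, CG9249, CG5613, Gfr, CG42568 and Mesh1 are each shared with another row, so some of their reads may belong to a neighbour.

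The largest falls were chosen by the same rule. CG13386 (chromosome 2L, 8399044 to 8399972) fell from 8.61 to 1.02 FPKM (-3.07; -2.25 with 1 added to each FPKM). Tsp42Eg (chromosome 2R, 2916416 to 2920738), which encodes a tetraspanin of the cell membrane, fell from 25.3 to 4.09 FPKM (-2.62), and the tetraspanin gene Tsp96F from 10.3 to 2.90 FPKM (-1.83). CG14527, now Nepl20, a neprilysin-like peptidase gene, fell from 22.6 to 3.67 FPKM (-2.62). CG5322 (LManI), a lysosomal alpha-mannosidase gene, fell from 10.8 to 2.58 FPKM (-2.07). nAcRbeta-21C, a subunit of nicotinic acetylcholine receptors, fell from 17.8 to 4.76 FPKM (-1.90).

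Other large falls included GstD7, a glutathione transferase gene (chromosome 3R, 8204261 to 8204977), from 10.2 to 2.21 FPKM (-2.21), and Sesn, which restrains TORC1 signalling, from 26.1 to 7.78 FPKM (-1.75). The merged row of CG31675 and CG9338 (chromosome 2L, 20865215 to 20869650) fell from 20.7 to 4.67 FPKM (-2.15). yellow-h, of the yellow family of secreted proteins, fell from 52.2 to 14.6 FPKM (-1.84). CG33307 fell from 103 to 14.8 FPKM, CG4829 from 43.9 to 6.59 FPKM, and CG43175 from 480 to 136 FPKM. CG4250, CG42566, CG5397, ec, CG31777, CG2930, CG15695, CG31219, CG15740, CG14984, CG41257 and CG9691 fell by 1.72 to 2.74 on the log2 scale. Sesn, CG31219, nAcRbeta-21C, ec, CG14527, CG4829 and CG33307 share their spans with another row. Genes named below also do so, among them CG5210, He, Pxn, egr, Mmp2, spn-E, ncd, Klp61F, Gel, Msh6 and dom. Others are ref(2)P, Gp93, JhI-21, PHGPx, CR43264, UGP, MFS17, CG3902, CG11779 and CG42788.

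**Figure D2:**
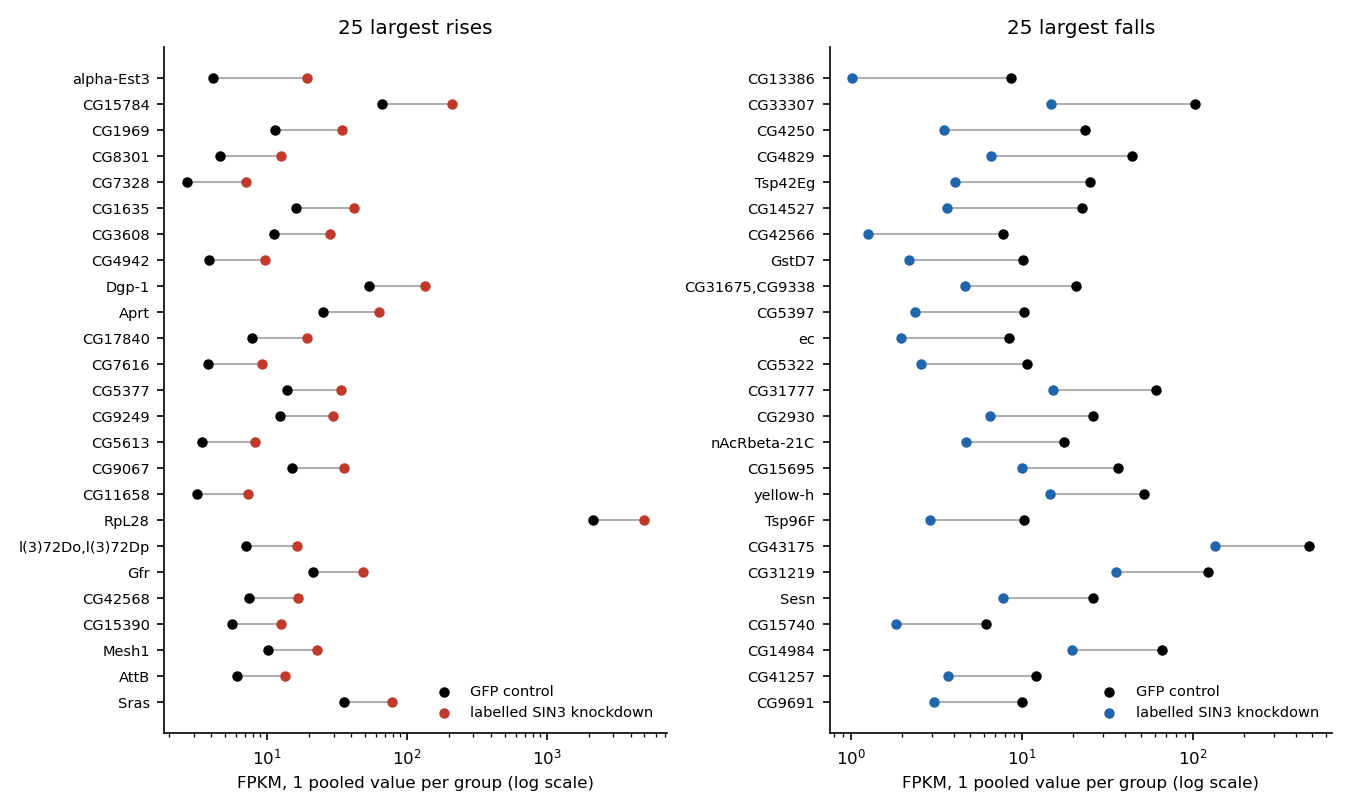
The 25 rises and 25 falls of largest log2 fold change among called rows with at least 5 FPKM in the higher and 0.5 FPKM in the lower group, each with its pooled FPKM in the GFP control (black) and in the samples labelled SIN3 knockdown (colour) on a log axis. alpha-Est3 rose most, from 4.14 to 19.5 FPKM, and CG13386 fell most, from 8.61 to 1.02 FPKM.

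Among the most abundant genes that fell, several encode secreted or surface proteins of hemocytes. Nplp2, a secreted neuropeptide-like precursor (chromosome 3L, 13349634 to 13350323), fell from 24886 to 10669 FPKM (-1.22), and CG5210, the chitinase-like growth factor gene Idgf6, from 2276 to 1504 FPKM (-0.60). BM-40-SPARC, a collagen-binding protein of basement membranes, fell from 884 to 472 FPKM (-0.91). He, the hemocyte surface glycoprotein hemese, fell from 774 to 425 FPKM (-0.86). Karl, a lipocalin gene (chromosome X, 11682877 to 11686286), fell from 714 to 359 FPKM (-0.99). The small heat shock gene Hsp26 fell from 667 to 315 FPKM, CG1092 from 889 to 533 FPKM, CG33460 from 532 to 351 FPKM, CG31997 from 510 to 337 FPKM, and the ribosomal RNA pseudogene CR41602 from 553 to 346 FPKM.

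Among the most abundant genes that rose, alphaTub84B, the main alpha-tubulin gene, went from 1728 to 2659 FPKM (0.62; chromosome 3R, 2912321 to 2914561). JhI-21, an amino acid transporter gene, rose from 422 to 609 FPKM (0.53) and Gp93, an Hsp90-type chaperone of the endoplasmic reticulum, from 387 to 588 FPKM (0.60). Sam-S rose from 240 to 484 FPKM (1.01). Thor, which holds back cap-dependent translation, rose from 257 to 460 FPKM (0.84). ifc, a dihydroceramide desaturase gene, rose from 260 to 419 FPKM (0.69), PHGPx, a glutathione peroxidase gene, from 195 to 375 FPKM (0.95), and Idh, which makes NADPH from isocitrate, from 213 to 372 FPKM (0.80). The non-coding RNA gene CR43264 rose from 238 to 377 FPKM (0.66).

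Genes of the X chromosome, of chromosome 4 and of heterochromatin were shifted downward relative to the arms of chromosomes 2 and 3. On those 4 arms 6647 rows were tested, of which 253 rose (3.81%) and 255 fell (3.84%), and the median log2 fold change was 0.02. On the X chromosome 1353 rows were tested, of which 18 rose (1.33%) and 74 fell (5.47%), with a median of -0.15, and 70.8% of the X-linked rows had a negative value against 47.1% on the autosome arms. On chromosome 4, a small and largely heterochromatic chromosome, 0 of 76 tested rows rose and 13 fell (17.1%), with a median of -0.29. On the heterochromatin and unplaced scaffolds of dm3, 0 of 47 rose and 11 fell (23.4%), with a median of -0.43. These are shares of rows in 1 pair of pooled values, so no test of the difference between chromosomes was made.

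The shift of the X chromosome was present at every level of expression. From the lowest to the highest quintile of mean FPKM, the median of X-linked rows was -0.41, -0.18, -0.12, -0.06 and -0.12. On the autosome arms the corresponding medians were -0.21, 0.04, 0.05, 0.06 and 0.04. In each quintile the X-linked median was thus the lower. In the lowest quintile 0 of 296 X-linked rows rose and 27 fell, and in the highest 8 of 196 rose and 7 fell. On the autosome arms 9 of 1300 rose and 85 fell in the lowest quintile, and 58 of 1379 rose and 41 fell in the highest. On chromosome 4 the median was -0.67 over 18 rows in the lowest quintile and -0.08 over 32 rows in the highest. Within rows of protein-coding genes, the medians were -0.15 on the X chromosome, 0.03 on the autosome arms, -0.28 on chromosome 4 and -0.38 on the scaffolds.

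**Figure D3:**
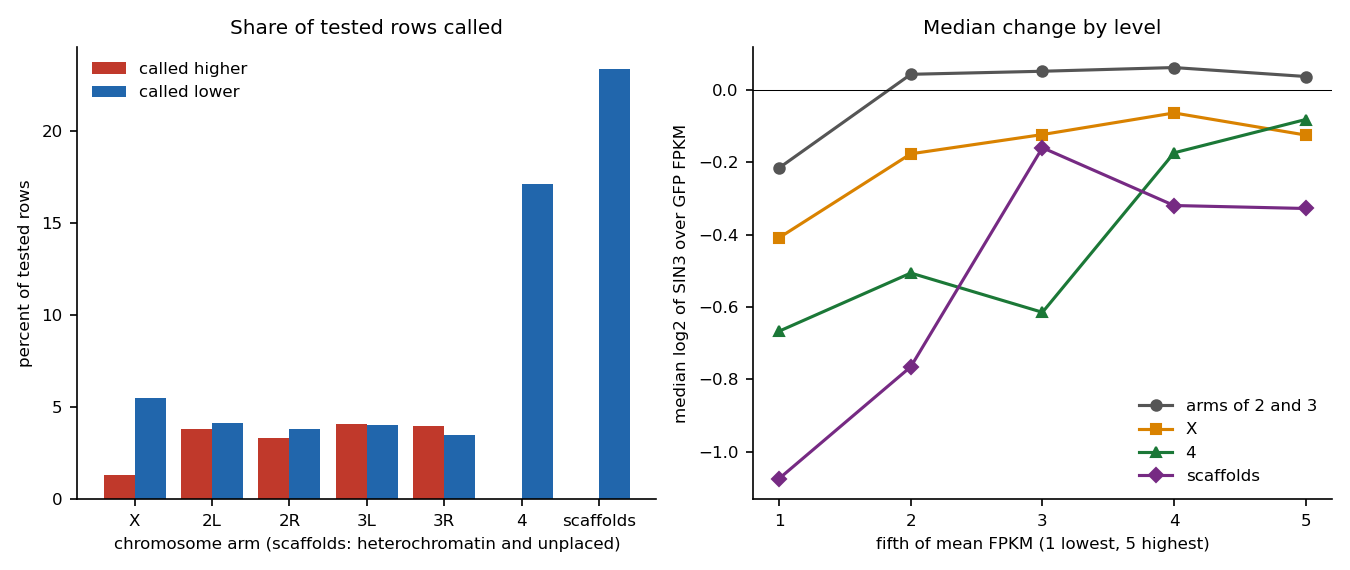
Left, percent of tested rows called higher (red) and lower (blue) on each chromosome arm and on the heterochromatin and unplaced scaffolds. Right, median log2 of SIN3 over GFP FPKM in each quintile of mean FPKM; the X chromosome (squares) lies below the arms of chromosomes 2 and 3 (circles) in every quintile, while several points of chromosome 4 and the scaffolds rest on under 20 rows.

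In male flies and in S2 cells, which resemble male cells in this respect, the single dose of X-linked genes is made up by the MSL complex and its non-coding roX RNAs. roX2, X-linked itself, fell from 81.5 to 47.6 FPKM (-0.78; q = 0.0417, close to the threshold, per the authors' deposited table). roX1 was hardly detected, at 0.131 and 0.148 FPKM, and was not tested. The protein-coding genes of the complex were not called. Log2 fold changes were -0.05 for msl-1, 0.35 for msl-2, -0.27 for msl-3, 0.07 for mle and -0.38 for the acetyltransferase gene mof. Pof, whose protein binds chromosome 4, stood at 0.52 and the gene of the heterochromatin protein HP1a at -0.32, and neither was called. The spans of msl-3, Pof and the HP1a gene are each shared with another row. The part of these genes in the chromosome shift was not tested.

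The 13 falls on chromosome 4 were led by yellow-h. CR43957, an antisense RNA gene, fell from 88.0 to 33.8 FPKM (-1.38), and CG31999 from 74.4 to 36.1 FPKM (-1.04). toy, a Pax6 transcription factor gene, fell from 15.6 to 8.81 FPKM (-0.83), and unc-13, which primes synaptic vesicles for release, from 35.6 to 22.6 FPKM (-0.65). CG11077 (Mpv17) fell from 238 to 159 FPKM (-0.58). The others were Caps, NfI, CG32017, CG33978, Rfabg, CG1674 and CG31997. On the heterochromatin scaffolds CG41128 fell from 39.3 to 14.7 FPKM (-1.42), CG40178 from 13.4 to 6.44 FPKM (-1.06) and Haspin, a histone H3 kinase of mitosis, from 22.2 to 13.5 FPKM (-0.72). Parp, the poly(ADP-ribose) polymerase gene, fell from 9.50 to 5.64 FPKM (-0.75) and CG40002 (ND-AGGG), a respiratory complex I subunit gene, from 67.1 to 40.2 FPKM (-0.74).

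Among X-linked genes, 18 rose in spite of the lower median. CG15784 (chromosome X, 5324713 to 5326494) had the largest rise, with 66.9 FPKM in the control and 212 FPKM after Sin3A dsRNA (1.67). Tob, a regulator of mRNA deadenylation, rose from 8.01 to 16.6 FPKM (1.06), Gs2, glutamine synthetase, from 54.6 to 106 FPKM (0.96), and the DNA repair gene Ogg1 from 15.1 to 24.97 FPKM (0.73). Their levels in the control ran from 3.42 FPKM for CG5613 to 238 FPKM for CR43264.

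Hemocyte markers as a group were lower. The gene lists here and below were chosen with earlier results of these data known, so their shares only describe these data. Of 22 tested members 10 fell, or 45.5% beside 4.35% of all tested rows, 0 rose, and 20 had negative values, with a median log2 fold change of -0.68 beside -0.014 over all tested rows. The matrix enzyme gene Pxn fell from 151 to 50.9 FPKM (-1.57) and the scavenger receptor gene Sr-CI (chromosome 2L, 4121702 to 4124006) from 126 to 58.3 FPKM (-1.12). Hml, which encodes the clotting factor hemolectin, fell from 0.779 to 0.336 FPKM (-1.21, but -0.41 with 1 added to each FPKM). nimB4 fell from 24.3 to 11.6 FPKM, LanB2, a laminin chain gene, from 11.3 to 6.66 FPKM, and vkg, a type IV collagen gene, from 125 to 78.8 FPKM. Among factors that specify hemocytes, srp stood at 85.7 and 68.6 FPKM and the merged row of MED15 and ush at 92.3 and 84.0 FPKM, neither called. The receptor tyrosine kinase gene Pvr had 264 and 260 FPKM, and the phagocytic receptor gene crq 111 and 140 FPKM.

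The summed level of the tested hemocyte markers was 28639 FPKM in the control and 13262 FPKM after Sin3A dsRNA, most of it Nplp2. In pooled cells, fewer cells of a type and less RNA per cell cannot be told apart. Of the markers of neurons, muscle and testis 0 were called, beside 7.68% of all tested rows. In lists this short, 0 calls says little. Median log2 fold changes were 0.18 for neuron, 0.52 for muscle, -0.58 for testis and -0.53 for fat body and gut markers. Neuron markers summed to 82.5 and 80.2 FPKM over 5 tested members, muscle markers to 16.4 and 21.8 FPKM over 2, testis markers to 36.3 and 24.3 FPKM over 3, and fat body and gut markers to 73.6 and 63.6 FPKM over 4. The defining neuron gene brp stood at 0.0462 FPKM and the muscle gene Mhc at 0.239 FPKM in the control. The testis marker Mst84Da and the gut trypsin gene betaTry were listed at 0 in both groups. The part of these markers in the hemocyte result was not tested.

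Germline and piRNA genes had a median of -0.53 over 13 tested members. spn-E, a helicase of the piRNA pathway, fell from 11.9 to 6.77 FPKM (-0.82), and the other 12 were not called. That call was 7.69% of the list, beside 7.68% of all tested rows called in either direction and 4.35% that fell. piwi stood at 46.4 and 30.7 FPKM, AGO3 at 18.3 and 12.7 FPKM and krimp at 34.95 and 24.6 FPKM. The defining germline gene vas was low, at 0.35 FPKM in the control, and was not tested. Of the fat body and gut list, Rfabg, the apolipophorin gene, fell from 2.12 to 1.18 FPKM (-0.85, or -0.52 with 1 added to each FPKM).

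Matrix turnover and chitin genes had negative values in 11 of 11 tested members, with a median of -0.57, although Idgf6 (CG5210) was the 1 call. That call was 9.09% of the list, beside 7.68% of all tested rows called in either direction and 4.35% that fell. Idgf2 stood at 864 and 594 FPKM, Idgf3 at 845 and 672 FPKM and Idgf1 at 444 and 380 FPKM.

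In the Notch list the receptor gene, a ligand gene and a pair of target genes fell, while 12 of 16 tested members were not called. After the Notch receptor binds a ligand of a neighbouring cell, proteases cut it, and its inner part enters the nucleus and switches on the E(spl) repressor genes. The 4 falls were 25% of the members, beside 4.35% of all tested rows, 0 rose, and the median was -0.23. The receptor gene N (chromosome X, 3028905 to 3066295) fell from 7.27 to 2.97 FPKM (-1.29) and the ligand gene Ser (chromosome 3R, 22997818 to 23019716) from 5.12 to 2.05 FPKM (-1.32). E(spl)mbeta-HLH fell from 7.66 to 2.44 FPKM (-1.65), and E(spl)m3-HLH from 1.29 to 0.234 FPKM (-2.46, or -0.89 with 1 added to each FPKM). The transcription factor gene Su(H), at 14.7 and 13.4 FPKM, and the protease genes kuz, at 70.9 and 68.8 FPKM, and Psn, at 83.1 and 84.4 FPKM, were not called.

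Of 15 tested BMP and activin genes 3 fell and 0 rose, with a median of -0.05, and the 3 were extracellular or intracellular modulators. They made up 20% of the list, beside 4.35% of all tested rows. sog, a secreted BMP antagonist (chromosome X, 15497396 to 15527467), fell from 8.45 to 3.31 FPKM (-1.35). cv-2, a BMP-binding protein gene, fell from 2.25 to 0.853 FPKM (-1.40, or -0.81 with 1 added to each FPKM), and Dad, the inhibitory Smad gene and itself a BMP target, from 29.8 to 15.998 FPKM (-0.90). The receptor genes tkv, at 21.6 and 18.7 FPKM, and put, at 42.2 and 48.0 FPKM, and the ligand gene gbb, at 39.0 and 39.5 FPKM, were not called.

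Of 17 tested JNK pathway genes 2 fell, egr, the TNF ligand gene, from 38.9 to 22.5 FPKM (-0.79), and the matrix metalloproteinase gene Mmp2 from 34.5 to 18.6 FPKM (-0.89). The kinase gene bsk was not called, at 123 and 114 FPKM. In the insulin and PI3K list 1 of 15 fell, Pdk1 from 52.1 to 35.7 FPKM (-0.54). In the list of apoptosis genes, which also holds egr, 1 of 14 rose, HtrA2, a mitochondrial serine protease gene, from 10.1 to 18.6 FPKM (0.89). The calls were 11.8% of the JNK list, 6.67% of the insulin list and 14.3% of the apoptosis list. Of all tested rows 7.68% were called in either direction and 4.35% fell. Cuffdiff called 0 members among 11 JAK-STAT, 23 Egfr and Ras, 13 Hippo, 16 Wnt and 9 Hedgehog genes. In lists this short, 0 calls says little beside the share of 7.68%.

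Of 27 tested microtubule and motor genes 1, alphaTub84B, rose and 4 fell, with a median of 0.02. These calls were 18.5% of the list, beside 7.68% of all tested rows. The kinesin genes that fell were Klp61F, from 63.7 to 42.3 FPKM (-0.59), ncd, from 126 to 83.5 FPKM (-0.59), Klp3A, from 51.4 to 34.98 FPKM (-0.56), and pav, from 54.0 to 37.2 FPKM (-0.54). Khc, a motor gene of transport, was not called, at 81.9 and 91.8 FPKM. Of 42 tested actin cytoskeleton genes 2 fell, the gelsolin gene Gel, from 231 to 156 FPKM (-0.56), and the integrin gene scb, from 6.07 to 3.27 FPKM (-0.90). Those falls were 4.76% of the list, near the 4.35% of all tested rows.

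Of 35 tested DNA repair and checkpoint genes 1 rose and 2 fell, with a median of -0.15, and these calls were 8.57% of the list, close to the 7.68% of all tested rows. Ogg1, which removes oxidised guanine, rose, and Parp and the mismatch repair gene Msh6, at 30.9 and 20.01 FPKM (-0.63), fell. Of 16 tested histone variant and chaperone genes 1 fell, Caf1-180, which loads histones behind replication forks, from 28.5 to 19.5 FPKM (-0.55). Of 40 tested chromatin remodelling and Polycomb genes 1 fell, the remodelling ATPase gene dom, from 60.8 to 41.7 FPKM (-0.54). In the circadian list 1 of 8 fell, the clock activator gene cyc, from 21.5 to 12.3 FPKM (-0.81). Calls were thus 6.25% of the histone, 2.5% of the remodelling and 12.5% of the circadian list, beside 4.35% of all tested rows that fell.

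Of the autophagy genes 4 rose, while 16 of 20 tested members were not called. Autophagy encloses cell contents in a double membrane, whose formation starts with the lipid kinase Vps34 and its partner Vps15, and delivers them to the lysosome. The rises were 20% of the tested members, beside 3.34% of all tested rows. None fell, 19 had positive values, and the median was 0.25 beside -0.014 over all tested rows. The merged row of CG30184 and Pi3K59F, the Vps34 gene, rose from 16.4 to 30.04 FPKM (0.87), and ird1, the Vps15 gene (chromosome 3R, 5066479 to 5071591), from 12.9 to 20.1 FPKM (0.64). Atg9, the membrane protein of the pathway (chromosome 2R, 12181903 to 12184737), rose from 28.3 to 47.1 FPKM (0.74), and ref(2)P, the cargo receptor known in mammals as p62, from 76.2 to 125 FPKM (0.72). Atg8a, which coats the growing membrane, stood at 271 and 331 FPKM and Atg1, the starting kinase, at 20.3 and 21.7 FPKM, neither called.

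The lysosome list had 1 call among 31 tested members, and it was in the opposite direction. That call was 3.23% of the list, beside 7.68% of all tested rows called in either direction and 4.35% that fell. Vha68-1, a subunit gene of the proton pump, fell from 12.2 to 7.08 FPKM (-0.79), while the more abundant paralog Vha68-2 stood at 218 and 273 FPKM and was not called. The list median was 0.12.

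Of 31 tested genes of fatty acid oxidation and the peroxisome 4 rose and 1 fell, with a median of 0.20. These calls were 16.1% of the list, beside 7.68% of all tested rows. CG2107, now CPT2, which hands fatty acids to the mitochondrial matrix (chromosome 3L, 2981022 to 2983551), rose from 29.4 to 62.3 FPKM (1.08). The thiolase gene yip2 rose from 91.6 to 139 FPKM (0.60). CG3902, an acyl-CoA dehydrogenase gene, fell from 157 to 101 FPKM (-0.64).

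Of 21 tested mitochondrial import genes 2 rose, CG31229, from 35.8 to 64.9 FPKM (0.86), and CG11779, from 29.2 to 50.3 FPKM (0.78). The list median was 0.12, or 0.02 over its rows with 1 gene symbol. Of 10 tested genes of RNA polymerase III and tRNA maturation 1 rose, CG12267, now Polr3C, a polymerase subunit gene (chromosome 3R, 8286136 to 8288140), from 10.3 to 22.1 FPKM (1.11). Of 12 tested sugar and phosphate transporter genes 1 rose, MFS15 from 66.0 to 104 FPKM (0.65), and 2 fell, CG10960 (nebu) from 174 to 96.5 FPKM (-0.85) and MFS17 from 90.5 to 59.3 FPKM (-0.61). Of 41 tested secretory pathway genes 1 rose, Gp93, and the chaperone genes Hsc70-3, at 929 and 1064 FPKM, and Pdi, at 499 and 586 FPKM, were not called. Calls were 9.52% of the import, 10% of the polymerase III, 25% of the transporter and 2.44% of the secretory list. Of all tested rows 7.68% were called in either direction and 3.34% rose. Cuffdiff called 0 of 52 RNA polymerase II, Mediator and TFIID genes, 33 splicing factors, 25 translation factors and 31 nuclear pore genes. It also called 0 of 33 ubiquitin ligases, 19 metal handling genes and 15 serine proteases and serpins. The lists just named with 0 calls had medians between -0.21 and 0.12. In the shorter of them, 0 calls says little beside the 7.68% of all tested rows.

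**Figure D4:**
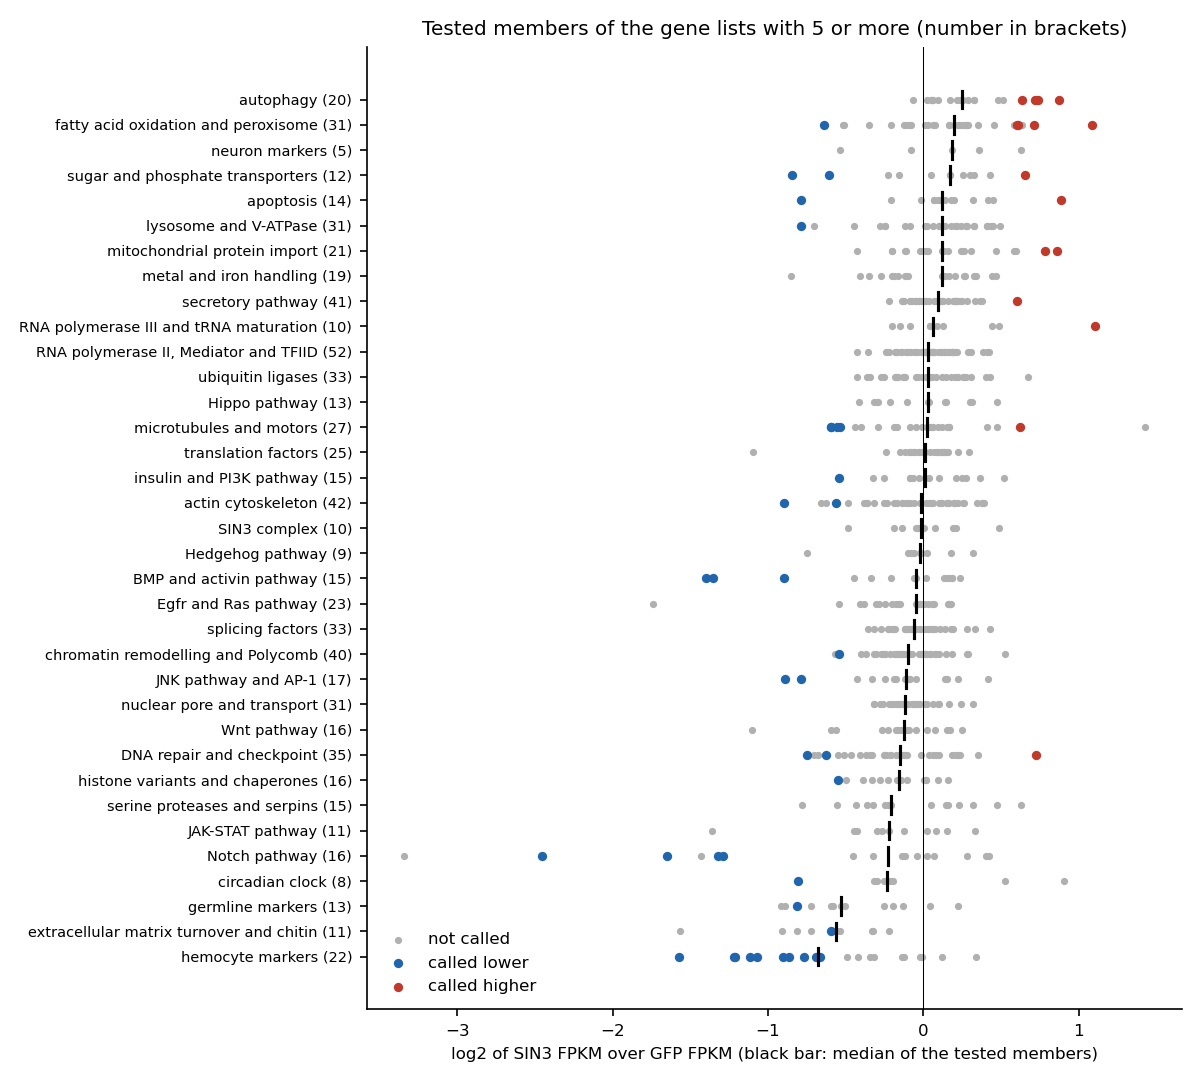
Each point is a tested member of a list with at least 5 tested members, placed by its log2 of SIN3 over GFP FPKM; black bars are list medians, red points rose and blue points fell. Of the lists drawn, autophagy has the highest median, 0.25 with 4 rises, and hemocyte markers the lowest, -0.68 with 10 falls. The lists drawn were chosen with earlier results of these data known, and lists drawn up after the values were seen are not plotted.

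Several falls came from neighbouring genes. Of the 342 falls on the 6 arms (X, 2L, 2R, 3L, 3R and 4), 64 stood in 29 runs of 2 or more tested neighbours that all fell, and of the 271 rises 21 stood in 10 such runs. Over all tested rows 4.35% fell and 3.34% rose, so some runs would form in any order of the rows. Whether these counts exceed that number was not tested. The longest run held 5 rows around the Hsp70B genes on chromosome 3R, where Hsp70Ba fell from 9.57 to 4.12 FPKM (-1.21), alphagamma-element:CR32865 from 75.1 to 38.2 FPKM (-0.98) and Hsp70Bbb from 5.82 to 1.90 FPKM (-1.61). Beside them Hsp70Bb fell from 70.2 to 36.0 FPKM (-0.96), while Hsp70Bc had 22.8 FPKM in the control and 8.92 FPKM after Sin3A dsRNA (-1.35). These Hsp70 copies are nearly identical, so their reads can be assigned to one another. On chromosome 3L, CR43481, an antisense RNA gene, fell from 1.38 to 0.402 FPKM (-1.78, or -0.77 with 1 added to each FPKM), beside the small heat shock genes Hsp23, from 427 to 167 FPKM, and Hsp27, from 447 to 208 FPKM.

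There were 3 other runs of 3 rows. On chromosome 3R, CG42788, CG6912 and CG3984 fell by 0.69, 1.55 and 1.27 on the log2 scale, with CG6912 (10960860 to 10962702) going from 21.8 to 7.45 FPKM. On chromosome 4, CG31999 (235635 to 246582), yellow-h (248548 to 251054) and CG1674 (251356 to 266529) fell together, the last from 81.4 to 50.1 FPKM (-0.70). The 1 run of 3 rises was on chromosome 3L. There UGP, which makes UDP-glucose, rose from 35.1 to 54.3 FPKM (0.63), CG32039, now Svip, a VCP-binding protein gene, from 18.8 to 34.1 FPKM (0.86), and CG34455, now Pdxk, pyridoxal kinase, from 25.9 to 40.0 FPKM (0.63). No 2 rows of any run had overlapping spans.

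Whether a row shared its span with another row moved with the calls. Of 3643 tested rows whose span in the file was that of 2 or more rows, 4.91% were called, and for 11.9% the p-value of Cuffdiff before adjustment was under 0.05. Of 4480 rows with a span of their own, 9.93% were called and 23.0% were under that p. Median absolute log2 fold changes were nearly equal, 0.24 and 0.23. In 1379 spans that held 2 or more tested rows, no span had more than 1 called row, although they held 103 called rows in all. Among rows of 1 gene with a span of their own, the quintile with the longest spans (6660 to 215672 bases) had 21 rises and 82 falls, and the quintile with the shortest had 26 and 47.

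The other groups of the study share the GFP control, so their values are set beside these without a test. Calls made up 0.163% of the rows tested after SAM-S knockdown and 9.62% in the double knockdown. For the 25 largest rises in the samples labelled SIN3 knockdown, log2 fold changes in the double knockdown lay between 0.63 for RpL28 and 1.94 for CG15784, and after SAM-S knockdown between -0.64 for AttB and 2.02 for RpL28. For the 25 largest falls they lay between -3.02 for the merged row of CG31675 and CG9338 and -0.70 for CG31777 in the double knockdown. After SAM-S knockdown the same falls had values between -1.02 for Sesn and 0.88 for CG42566. E(spl)mbeta-HLH had -1.65 in the samples labelled SIN3 knockdown, 1.73 after SAM-S knockdown and 0.49 in the double knockdown. The values of egr were -0.79, 0.62 and -0.08 in the same order, so both genes had values of both signs. Hsp27 was negative in each table, with -1.10, -0.74 and -2.74.

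**Figure D5:**
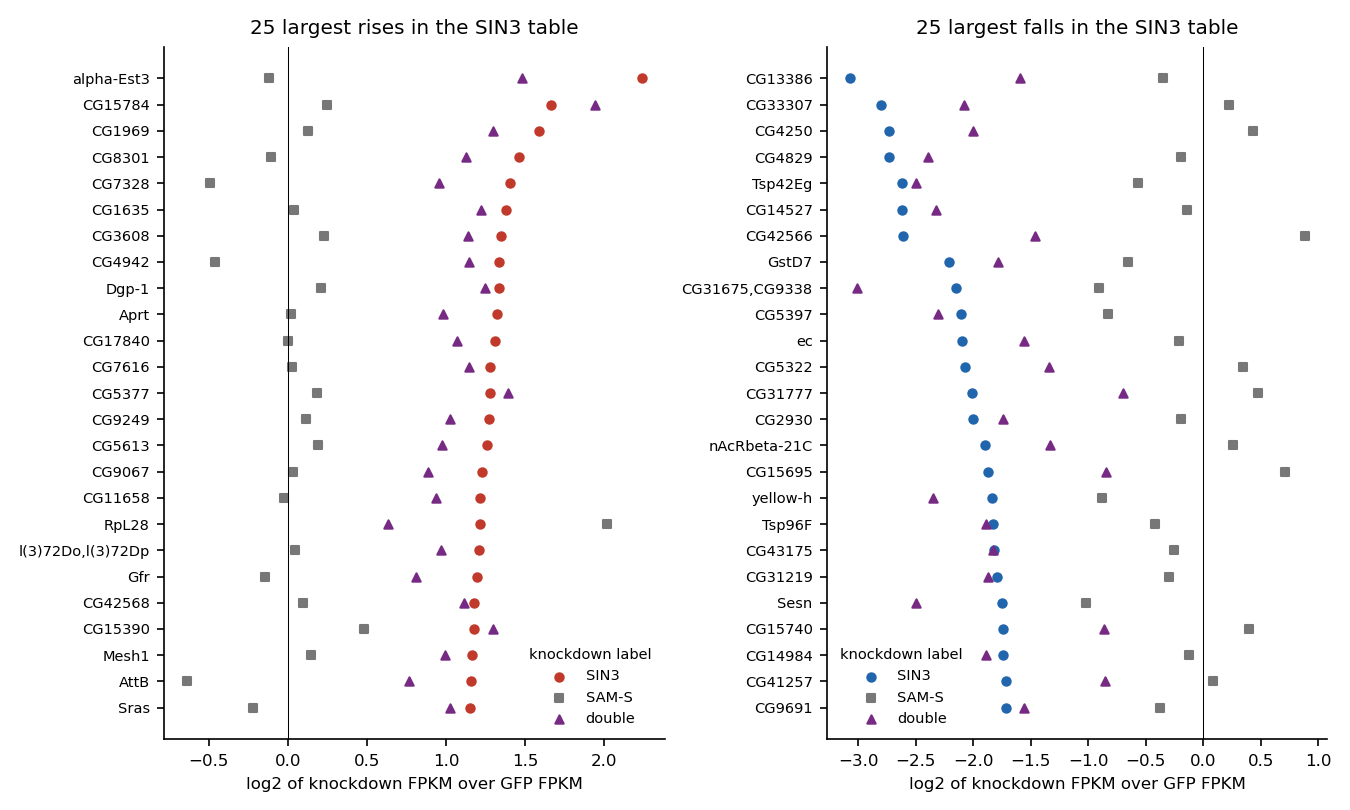
Log2 of knockdown over GFP FPKM in each of the 3 tables for the 25 largest rises and falls of the samples labelled SIN3 knockdown, where circles are the SIN3, squares the SAM-S and triangles the double knockdown table; all 3 share the GFP control. Triangles run from -3.02 to 1.94, and squares from -1.02 to 2.02, the value of RpL28.

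The chromosome medians were likewise set side by side. X-linked rows had a median log2 fold change of -0.15 in the samples labelled SIN3 knockdown, -0.02 after SAM-S knockdown and -0.12 in the double knockdown. The autosome arms had 0.02, -0.02 and 0.01. Chromosome 4 had -0.29, -0.10 and -0.35, and the heterochromatin and unplaced scaffolds -0.43, -0.07 and -0.39. For roX2, -0.17 was found after SAM-S knockdown and -0.75 in the double knockdown.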

How the data were processed

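S2 cell RNA was sequenced. The submitters' processing notes name bcl2fastq, Cuffdiff and the build dm3. No aligner, annotation, strand setting, filter or software version is stated, and these are therefore not given in the sources used here. The authors' table gives, per the file headers, an FPKM per gene row in the GFP control and the knockdown; the labels say that replicates were combined. Per the file headers it also gives a test statistic, used here as a score, and the authors' p-value and q-value.

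From the deposited FPKM, log2 fold changes were taken with nothing added. Rows with status OK and a deposited q under 0.05 were called. Starts in the files count from 0, so 1 was added. Rows of the 3 tables were joined by locus and symbol (14516 rows). A span shared by several rows is that of a group of genes, and coordinates are given only for rows with a span of their own. Newer symbols come from the RefSeq gene table, used for names and biotypes only. Python 3.11.15, numpy 2.4.6, pandas 2.3.3, scipy 1.17.1 and matplotlib 3.10.9 were used, and the Benjamini-Hochberg adjustment was tested on simulated data.

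Genes were named by rule: Sin3A; per direction the 25 largest called changes with at least 5 and 0.5 FPKM in the higher and lower group, and the 10 called rows of highest FPKM; up to 4 called members per list and direction; and members of runs of 3 or more. Other genes, such as those of chromosome 4, the X chromosome and dosage compensation, were chosen after their values were seen. Members and lists were chosen with earlier results of these data known, and aliases of 3 entries in the lists were corrected after values were seen. Alternatives were a q of 0.01, other adjustments, added constants, filters on low values and on merged rows, and median centring. Sequences, and a description of promoter motifs that had been planned, were not used here. Some called members of the lists are not reported here.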

Additional observations from a re-analysis of the deposited data

How the results depend on the processing

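Rises numbered 271 and falls 353. With a q under 0.01 they numbered 138 and 189. When each deposited statistic was instead turned into a p by the normal distribution and adjusted by Benjamini-Hochberg, they numbered 7 and 30, and the share of rises went from 43.4% to 18.9%; 26 of those rows were also called by the deposited q, and the statistic that the deposited p would need was 1.73 times the deposited one (median). Under the other alternatives (Benjamini-Hochberg over the tested rows, rows with 1 symbol, at least 1 FPKM in both groups, at least 1.5-fold with 1 added, median centring) rises numbered 234 to 272 and falls 312 to 356. Adding 1 FPKM cannot change a sign, and median centring moved values by 0.014. Neither could therefore reverse any of 130 named genes. Centring could not change the counts of calls either, since the smallest called change was 0.49 in size. None of 38 list medians moved by 0.1 or more. With 1 FPKM added, the values of CR43481, E(spl)m3-HLH, Hml, Rfabg and cv-2 shrank by over 1.5 times. Chromosome medians moved by less than 0.1 over protein-coding rows or rows with 1 symbol and a span of their own, 2 alternatives chosen after seeing the data. No paired analysis was possible because each table holds 1 pooled value per group, and replicates could not be left out in turn for the same reason. Depth is unknown, so falls that ended under 1 FPKM have uncertain size.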

Other observations

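The 5 lists below were drawn up after the values had been seen, so their counts describe these data and support nothing. Beside the counts of these lists, and of the families further below, 3.34% of all tested rows rose and 4.35% fell. Septate junctions are the barriers between epithelial cells of insects, and several of their proteins also act in cell adhesion. Of 28 tested septate junction genes 10 rose and 1 fell, with a median log2 fold change of 0.34. sinu, a claudin-like membrane protein gene, rose from 16.5 to 33.8 FPKM (1.04), Mcr, of the thioester protein family, from 57.0 to 114 FPKM (1.00), and Lac, an immunoglobulin-type adhesion protein gene, from 106 to 187 FPKM (0.82). Cont rose from 57.3 to 99.2 FPKM (0.79), Nrx-IV from 59.9 to 101 FPKM (0.75) and Gli from 23.2 to 35.8 FPKM (0.63). CG8121 (pasi2), Tsf2, cold and vari rose as well, by 0.66 to 0.89 on the log2 scale. Fas3 fell from 22.9 to 12.2 FPKM (-0.91), and the core scaffold gene cora, at 216 and 204.7 FPKM, was not called. In the double knockdown table, which has the same control, the 10 rises had log2 fold changes between 0.06 for Gli and 0.36 for vari, and after SAM-S knockdown between -0.33 for Gli and -0.14 for vari. The difference between the SIN3 and double tables was not tested.

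Of 18 tested genes of iron-sulfur cluster assembly 4 rose: the merged row of l(3)72Do, the scaffold gene CG9836 (IscU) from 70.3 to 122 FPKM (0.79), CG4858 (Nubp2) from 37.3 to 64.2 FPKM (0.78) and Ciao1 from 36.7 to 66.2 FPKM (0.85). Of 13 tested members of the coenzyme Q list 3 rose: Coq3, and Adck1 and Adck5, which were listed for their kinase-like family only. CG32649 (Coq8) was not called, at 25.7 and 37.4 FPKM (0.54). In that list 12 members had positive values, with a median of 0.32. Only 3 of 10 nicotinic receptor subunit genes were tested, and all 3 fell: nAcRbeta-21C, nAcRalpha-80B from 3.83 to 1.42 FPKM (-1.43) and nAcRbeta-96A from 4.03 to 1.62 FPKM (-1.32). Of 6 tested integrin genes 3 fell, scb, betaInt-nu from 6.37 to 2.55 FPKM (-1.32) and alphaPS5 from 0.613 to 0.217 FPKM (-1.50, or -0.41 with 1 added to each FPKM). The main beta integrin gene mys, at 180 and 214 FPKM, was not called.

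Families were also formed by the leading letters of gene symbols, after the values had been seen, which gave 84 families of at least 5 tested rows. Of 20 tested aminoacyl-tRNA synthetase genes 4 rose, 0 fell and 19 had positive values, and Aats-tyr rose from 56.4 to 108 FPKM (0.93). Of 12 tested rows with symbols in Hsp 8 fell and 12 had negative values, with a median of -1.09. Rows of ribosomal protein genes had small negative values, with medians of -0.12 over 46 RpL and -0.18 over 32 RpS rows, and RpL28 was the 1 called.

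CG6749 had the largest log2 fold change of any called row, 6.20, from 0.245 to 18.01 FPKM (3.93 with 1 added to each FPKM). Its value was -0.60 after SAM-S knockdown and -0.24 in the double knockdown, and it was called in neither. From a control level so low, these values have uncertain size. The esterase gene alpha-Est4, next to alpha-Est3, rose from 0.320 to 1.74 FPKM (2.44, or 1.05 with 1 added to each FPKM), and its value was 2.16 in the double knockdown. These 2 genes lay below the FPKM minimum of the rule for named genes.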
